A study of Stropharia rugosoannulata with 3 samples.

Results

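In the transcriptome of *S. rugosoannulata* mycelia, 121 gene models had an FPKM in library 2 that was more than 3 times that in library 1 and more than 3 times that in library 3. They were chosen by this rule from the 9184 models with a mean count of at least 100 over the libraries, of 11750 models in all, after the peroxidase genes that the study placed in its expression trees had been left out. FPKM is the number of sequenced fragments of a gene corrected for gene length and library depth. The 3 libraries are replicates of a single condition, mycelium on potato dextrose agar at 25 °C. The labels give the strain as Heinong No.1, a commercial cultivar, whereas the sample titles name S68, a monokaryon that the study derived from it. Nothing in the labels says whether the libraries came from separate plates, and nothing marks library 2 as treated differently. The contrast of library 2 with the others was therefore drawn from the values and is given as a description without a test.

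*S. rugosoannulata*, the wine-cap mushroom, is an edible agaric that decomposes litter. Its vegetative stage is the mycelium, a network of hyphae that secretes enzymes into the substrate and from which fruiting bodies form. In fungi, genes that arose from each other by tandem duplication often remain neighbours on a chromosome, and genes of 1 pathway for a secondary metabolite often lie side by side as a cluster. For this reason the place of each model on its contig and its length are given beside its level. The deposited tables hold no gene function, so the models are called by their identifiers. Among the members, the text of the study names SRUG_02421 alone.

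The counts summed to 30516180 in library 2, against 31831513 in library 1 and 29678333 in library 3. Across all models, library 2 had a Pearson's r of log2(FPKM + 1) of 0.969 with library 1 and of 0.973 with library 3, while libraries 1 and 3 reached 0.985 with each other. These are correlations across genes, which are not independent replicates. The median model of the 9184 was 0.15 higher on the log2 scale in library 2 than in library 1, and 0.03 higher than in library 3. After TMM normalization, which removes this shift, 107 of the 121 members still met the rule, and no other model did.

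The 121 members are 1.32% of the models tested. The same rule was met by 13 models in library 1 (0.142%) and by 26 in library 3 (0.283%). In the opposite direction, 48 models (0.523%) were more than 3 times lower in library 2 than in both other libraries, against 21 (0.229%) in library 1 and 7 (0.0762%) in library 3. Taken singly, the fold was met by 310 models over library 1 (3.38%, the count with library 3 left out) and by 146 over library 3 (1.59%), and by 110 models of library 1 (1.2%) and 114 of library 3 (1.24%) over library 2. Library 2 was the highest of the libraries in 43.7% of all models tested. Among the 2506 models below the minimum count, 7.22% met the fold in library 2 alone, against 2.47% in library 1 and 3.03% in library 3. Of the 181 in library 2, 86 had 0 counts in libraries 1 and 3, where any count meets the fold. Only 113 of the 181 exceeded 6 counts in library 2. Of the 3 libraries, library 2 thus had the most models raised alone and the most lowered alone. With TMM-normalized CPM the models raised alone numbered 107 in library 2, 19 in library 1 and 24 in library 3, and those lowered alone 60, 10 and 10 in the same order. The ratio of library 2 to the higher of libraries 1 and 3 was between 3 and 4 in 57 members, between 4 and 5 in 19, between 5 and 10 in 31, and above 10 in 14. The median ratio was 4.22 in the members and 0.953 over all models tested. Just inside the threshold were SRUG_09852 (3.01, with 46.9 FPKM in library 2 against 15.6 and 10.2 in libraries 1 and 3), SRUG_02598 (3.01) and SRUG_03597 (3.02). Just outside it were SRUG_04815 (2.98), SRUG_03277 (2.97) and SRUG_09458 (2.94, with 183 FPKM in library 2 against 51.8 and 62.3). A peroxidase gene that was left out, SRUG_08480, also met the fold, with 11.5 FPKM in library 2 against 0.594 and 1.84 in libraries 1 and 3.

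**Figure D1:**
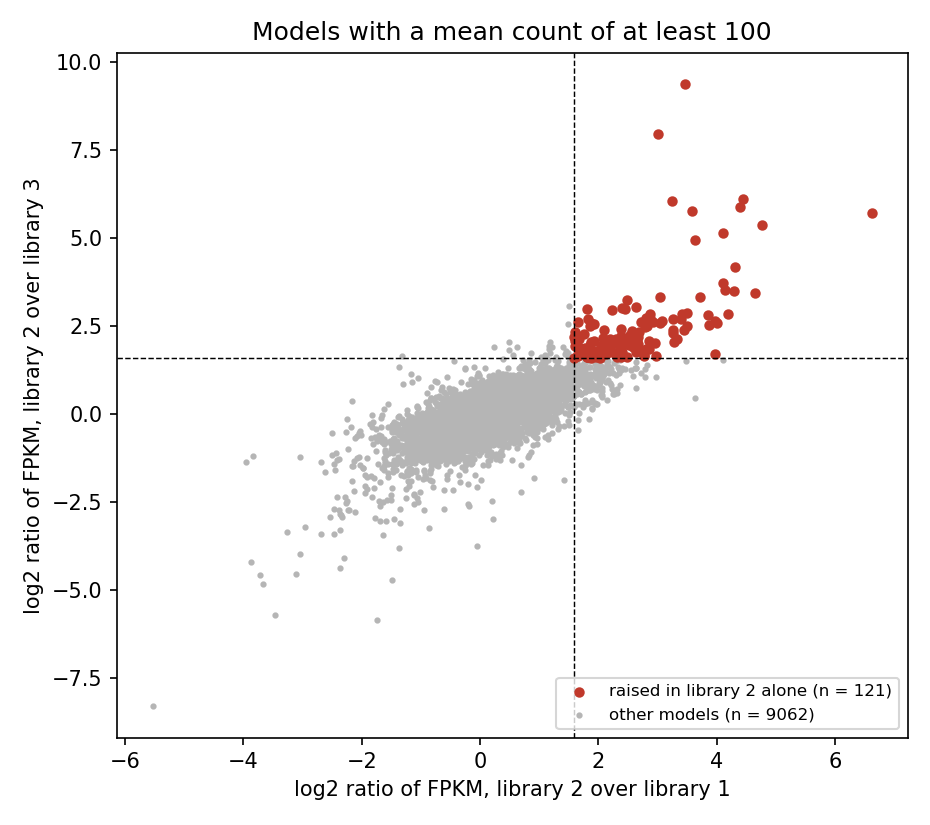
Log2 ratio of FPKM of library 2 over library 1 (x axis) and over library 3 (y axis) for the models with a mean count of at least 100, with dashed lines at 3 times; 1 model at 0 FPKM in library 1 has no ratio and is not drawn. The 121 members (red) fill the upper right corner by construction, and the other models (grey) surround the origin.

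The members ranged from 1.98 to 3167 FPKM in library 2, with a median of 28.6, and their medians were 4.82 FPKM in library 1 and 4.95 in library 3. The median percentile of the members among all 11750 models was 53.3 in library 2, against 27.0 in library 1 and 25.1 in library 3. Over the models tested, the median was 37.0 FPKM in library 2, 32.5 in library 1 and 35.3 in library 3, and the median percentile was 60.8 in each. The median of the members was thus below that of the models tested in every library, library 2 included. An FPKM of at least 100 was found for 24 of the 121 members in library 2, and for 4 in each of libraries 1 and 3. Of all 9184 models tested, 1608 reached it in library 2, 1703 in library 1 and 1657 in library 3. Together the members took 1.01% of all counts in library 2, against 0.167% in library 1 and 0.174% in library 3. The summed FPKM of the members, a measure in which short models weigh more than in counts, was concentrated in few members. The 5 members highest in library 2 held 56.1% of it in library 2, 54.2% in library 1 and 50.6% in library 3.

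Libraries 1 and 3, whose ratio to each other the rule did not set, gave like levels for most members. In 99 of the 121 (81.8%), these libraries were within 2 times of each other, against 94.5% of all models tested. Library 1 was more than 2 times library 3 in 9 members (7.44%, against 1.45% of all models) and library 3 more than 2 times library 1 in 13 (10.7%, against 4.05%). The median log2 ratio of library 1 to library 3 was -0.22 in the members and -0.14 over all models. A difference of more than 3 times between libraries 1 and 3 was found in 0.338% of all models towards library 1 and in 0.708% towards library 3. Each ratio has a single library on its raised side and so no replicate error.

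The highest member was SRUG_09122, model 619 of contig 10, with 3167 FPKM in library 2 against 582 and 402 in libraries 1 and 3. It was 17th among all models in library 2, 202nd in library 1 and 321st in library 3. It was the 1 member among the 150 models with the highest mean FPKM. SRUG_06489, described with its neighbours below, followed with 1768 FPKM. SRUG_09150, on the same contig as SRUG_09122, had 1375 FPKM in library 2 against 405 and 282 in libraries 1 and 3. These models were well measured in every library, with at least 630 counts each, and library 2 was the highest for each. SRUG_03693, model 1043 of contig 3, had 1236.5 FPKM in library 2, against 62.5 and 68.5 in libraries 1 and 3, a ratio of 18.0 with libraries 1 and 3 close to each other. SRUG_10208 reached 1130.4 FPKM in library 2, against 144 and 359.5.

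The next levels down were held by models on several contigs. SRUG_02848 had 668 FPKM in library 2 against 219 and 158 in libraries 1 and 3, and at 1153 bases it was the only model of more than 1000 bases among the 7 highest. SRUG_04678 had 333 FPKM in library 2 against 15.8 and 5.60, a ratio of 21.1. SRUG_02387, the shortest member at 215 bases, had 301 FPKM in library 2 against 19.1 and 47.7. For SRUG_04678 library 1 was above library 3, and for SRUG_02387 library 3 was above library 1. SRUG_02699 and SRUG_06439 had 197 and 188 FPKM in library 2, with ratios of 3.32 and 6.13. SRUG_07928, model 6 of contig 9, had a ratio of 17.2 at a lower level, with 17.8 FPKM in library 2 against 1.04 and 0.501. SRUG_06925 and SRUG_11229 had ratios of 11.5 and 11.3, with 116 and 165 FPKM in library 2, and SRUG_09256 had a ratio of 12.3 with 53.5 FPKM in library 2 against 4.33 and 1.73.

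**Figure D2:**
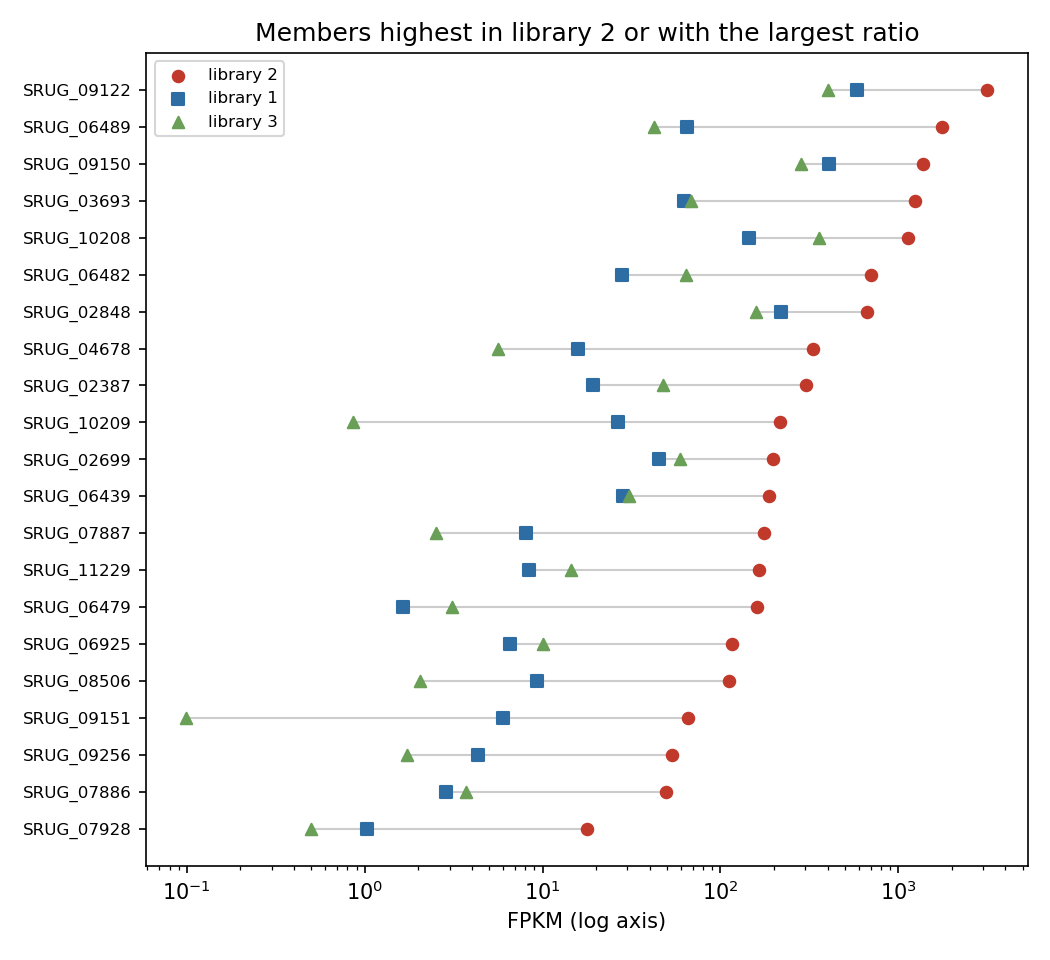
FPKM (log axis) of the 21 members that were among the 12 highest in library 2 or the 12 with the largest ratio, with library 2 as circles, library 1 as squares and library 3 as triangles. The circle is to the right of both other symbols in every row, from SRUG_07928 with 17.8 FPKM to SRUG_09122 with 3167, and libraries 1 and 3 are farthest apart in SRUG_09151 and SRUG_10209.

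SRUG_02421, model 1119 of contig 2, encodes a protein that the study compared with a psilocybin biosynthesis enzyme of *P. cubensis*. The study found low identity and placed the protein in another branch than the known enzymes. From this and the other key enzymes compared, it proposes that the psilocybin gene cluster is absent from this genome. It also cites earlier chemical work that detected no psilocybin in the species. SRUG_02421 had 107 FPKM in library 2 (4193 counts), against 28.2 and 18.2 in libraries 1 and 3 (1156 and 695 counts), and its ratio of 3.80 was below the median of the members. SRUG_02416, which lies 5 identifiers before it, was also a member, with 6.21 FPKM in library 2 against 0.548 and 1.09 in libraries 1 and 3, and was named here after its values had been seen. None of the 4 models between them met the rule.

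The largest ratio of all, 52.3, was that of SRUG_06479, model 50 of contig 7, which had 161 FPKM in library 2 against 1.64 and 3.08 in libraries 1 and 3. The counts behind these values were 2446 in library 2, against 27 and 46. SRUG_06489, model 60 of the same contig, had the next ratio, 27.1, with 1768 FPKM in library 2 against 65.2 and 42.2, from 26984 counts against 1042 and 630. Between them lay SRUG_06482, model 53, with 698 FPKM in library 2 against 27.9 and 63.7 and a ratio of 10.95. The order of libraries 1 and 3 differed among the 3 members, since library 1 was the higher of them for SRUG_06489 and the lower for SRUG_06479 and SRUG_06482.

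The stretch from SRUG_06479 to SRUG_06489 was not raised as a whole. Of its 11 models, the 3 members were raised, and SRUG_06481 (50.8 FPKM in library 2 against 42.5 and 40.5) and SRUG_06483 (22.3 against 17.2 and 18.4) were nearly level across the libraries. SRUG_06488, the model next to SRUG_06489, went the other way, with 12.1 FPKM in library 2 against 37.9 and 131 in libraries 1 and 3. SRUG_06484 and SRUG_06487 had no count in any library, SRUG_06485 had 5 counts in library 3 alone, and SRUG_06480 had at most 4 counts in a library. SRUG_06486 was below the minimum count but had 86 counts in library 2, against 2 in library 1 and 0 in library 3, where a count of 0 allows up to 6 counts. These neighbours were named after their values had been seen.

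**Figure D3:**
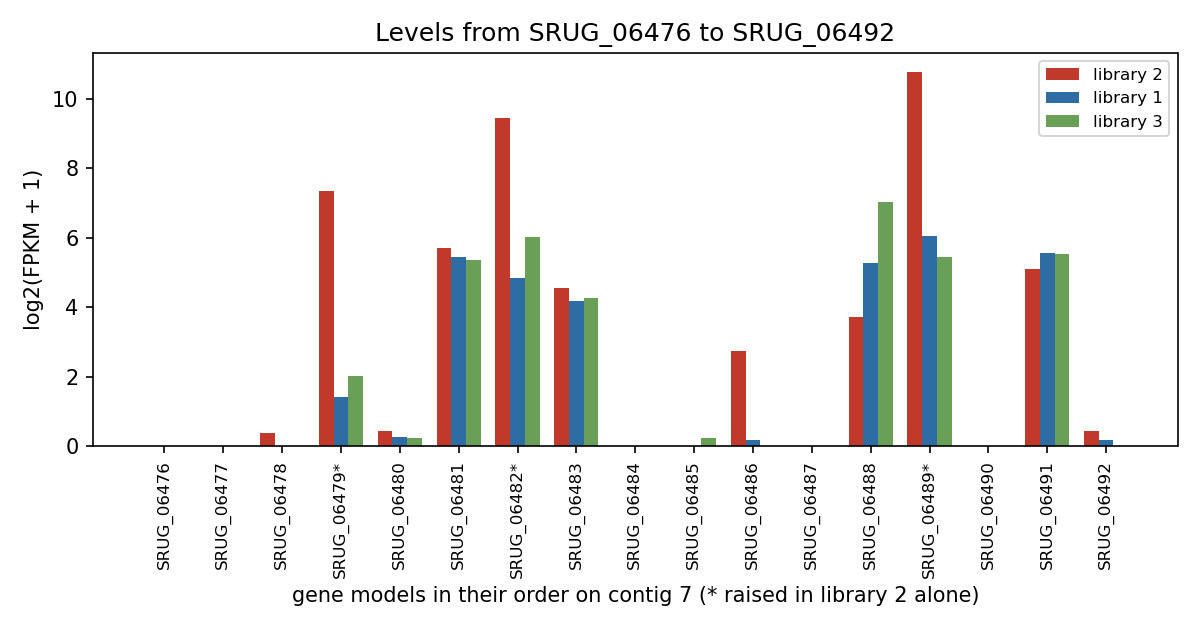
Log2(FPKM + 1) of the models from SRUG_06476 to SRUG_06492 in their order on contig 7, with library 2 as the left bar, library 1 in the middle and library 3 on the right; asterisks mark members. Tall library 2 bars stand at SRUG_06479, SRUG_06482 and SRUG_06489. Between them, SRUG_06481 and SRUG_06483 have nearly level bars, SRUG_06486 has a shorter bar that is also highest in library 2, and SRUG_06488 is lowest in library 2.

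The raised models of this stretch were alike in length. The length behind each FPKM could be read from the deposited tables, because count divided by FPKM grows with length. In each library there was 1 scale at which every model with at least 20000 counts (162 models in library 2, 191 in library 1 and 158 in library 3) came out at a whole number of bases, within 0.1 base. Of the 3229 models with at least 2000 counts in every library, 96.3% had the same whole length from all 3 libraries, and rounding of the counts leaves an error of at most 1.09 bases for members under 500 bases and of at most 17.4 bases for any member. By this measure SRUG_06479, SRUG_06482 and SRUG_06489 were 464, 470 and 467 bases long, and SRUG_06486 was 463 bases. In all, 7 models of contig 7 had a length from 463 to 471 bases. Outside the stretch these were SRUG_06462 (470 bases, with 237 counts in library 2 against 23 and 3), SRUG_06468 (468 bases, with 67 counts in library 2 against 16 and 0) and SRUG_06823 (471 bases, with 479 counts in library 2 against 478 and 436). Of the 7, SRUG_06823 was level, and the other 6 lay between models 33 and 60. Of these 6, 3 met the rule, and SRUG_06462, SRUG_06468 and SRUG_06486 had mean counts below the minimum. The error bounds above cover members only, and lengths from few counts, as in SRUG_06468 and SRUG_06486, are only approximate. Sequences were not compared, and how reads that match several genes were counted is not stated by the sources at hand, so the split of reads among models of like length that may be copies is uncertain.

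Direct neighbours were found among 15 of the 121 members, which formed 7 runs of consecutive model numbers. The count moved with the settings, as did the number of models that met the rule. It was 41 of 310 when library 3 was left out and 61 of 353 with a fold of 2. With folds of 4 and 5 it was 7 of 64 and 5 of 45. With no minimum count it was 51 of 302, and with minimum counts of 10 and 500 it was 32 of 197 and 4 of 52. It stayed at 15 with TMM, of 107, and without library 1, of 146. Of the 189 models tested that have a member as the next model, 15 (7.94%) were members themselves, against 1.32% of all models tested. The rule found 0 such neighbours among the models raised in library 1 alone or in library 3 alone, and 0 among those lowered in library 2, but these lists are shorter. Beyond the runs, most models next to a member were not raised, although a ratio above 2 was more frequent among them than among all non-members. Models next to a member that were not members had a median ratio of 0.963, against 0.949 over all non-members, and 12 of 174 (6.90%) exceeded 2, against 2.56% of all non-members. At a distance of 2 models the share above 2 was 1.83%, at 3 models 1.26%, at 4 to 5 models 3.78% and at 6 to 10 models 2.52%.

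The longest run was on contig 9, from SRUG_08505 to SRUG_08507, models 594 to 596. SRUG_08505 had 45.2 FPKM in library 2 against 4.75 and 0.678 in libraries 1 and 3, SRUG_08506 had 112 against 9.36 and 2.05, and SRUG_08507 had 35.7 against 5.74 and 4.30. In all 3 the order of the libraries was the same, with library 3 the lowest. SRUG_08508, the next model, had 51 counts in library 2 against 11 and 8, too few for the rule. Its derived length of 323 bases, only approximate at so few counts, was close to the 324 bases of SRUG_08507. SRUG_08510, 2 models further on, was nearly level, with 39.5 FPKM in library 2 against 29.9 and 31.1.

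On contig 8, SRUG_07886 had 49.3 FPKM in library 2 against 2.85 and 3.69 in libraries 1 and 3, and SRUG_07887, the next model, had 176 against 8.09 and 2.52. Their ratios of 13.4 and 21.7 were among the largest, while the models on either side, SRUG_07885 and SRUG_07888, had ratios of 0.806 and 1.09. On contig 10, SRUG_09150 was followed by SRUG_09151, with 66.0 FPKM in library 2 against 5.95 and 0.0993. The last value rests on 2 counts. On contig 12, SRUG_10208 was followed by SRUG_10209, with 216 FPKM in library 2 against 26.7 and 0.860, from 2258 counts against 293 and 9. SRUG_10208 was higher in library 3 than in library 1, and SRUG_10209 lower, although these models are neighbours with the same length of 320 bases. SRUG_10210, the model after them, was 338 bases long and was not raised, with 462 FPKM in library 2 against 609 and 523.

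The other runs were on contigs 1, 10 and 16. SRUG_09198 and SRUG_09199 on contig 10 had 49.9 and 143 FPKM in library 2, with ratios of 4.22 and 6.69. SRUG_00251 and SRUG_00252 on contig 1 had 20.5 and 40.0 FPKM in library 2, with ratios of 3.80 and 3.08, and the 3 models after them had no count in any library. SRUG_11304 and SRUG_11305 on contig 16, 1222 and 1223 bases long, had ratios of 3.39 and 3.74. Separated by 1 model each were SRUG_01079 and SRUG_01081 on contig 1 (3.77 and 3.11 FPKM in library 2) and SRUG_11480 and SRUG_11482 on contig 17 (1.98 and 51.3 FPKM in library 2). The model between the first of these pairs, SRUG_01080, had a ratio of 1.22 and that between the second, SRUG_11481, one of 1.97.

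Members were found on 18 of the 21 contigs, with 13 each on contigs 1 and 2 and 12 on contig 3. As a share of the models tested they ranged from 0.421% on contig 4 (3 of 712) and 0.439% on contig 13 (1 of 228) to 2.84% on contig 16 (6 of 211) and 2.72% on contig 17 (4 of 147). Contig 19 had 1 member among only 11 models tested. There were 0 members among the 177 models tested on contig 14. Contigs 12 and 15 had 4 of 210 (1.9%) and 2 of 122 (1.64%), against 1.32% of all models tested. Within 50 models of a contig end lay 31 members (25.6%), against 11.5% of all models tested, and within 20 models 11 members (9.09%, against 3.91%). Of the models raised in library 1 alone 6 of 13 (46.2%) lay within 50 models of an end, and of those raised in library 3 alone 3 of 26 (11.5%). The runs on contigs 8, 9, 12 and 16 and SRUG_06479 were among the members near ends.

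**Figure D4:**
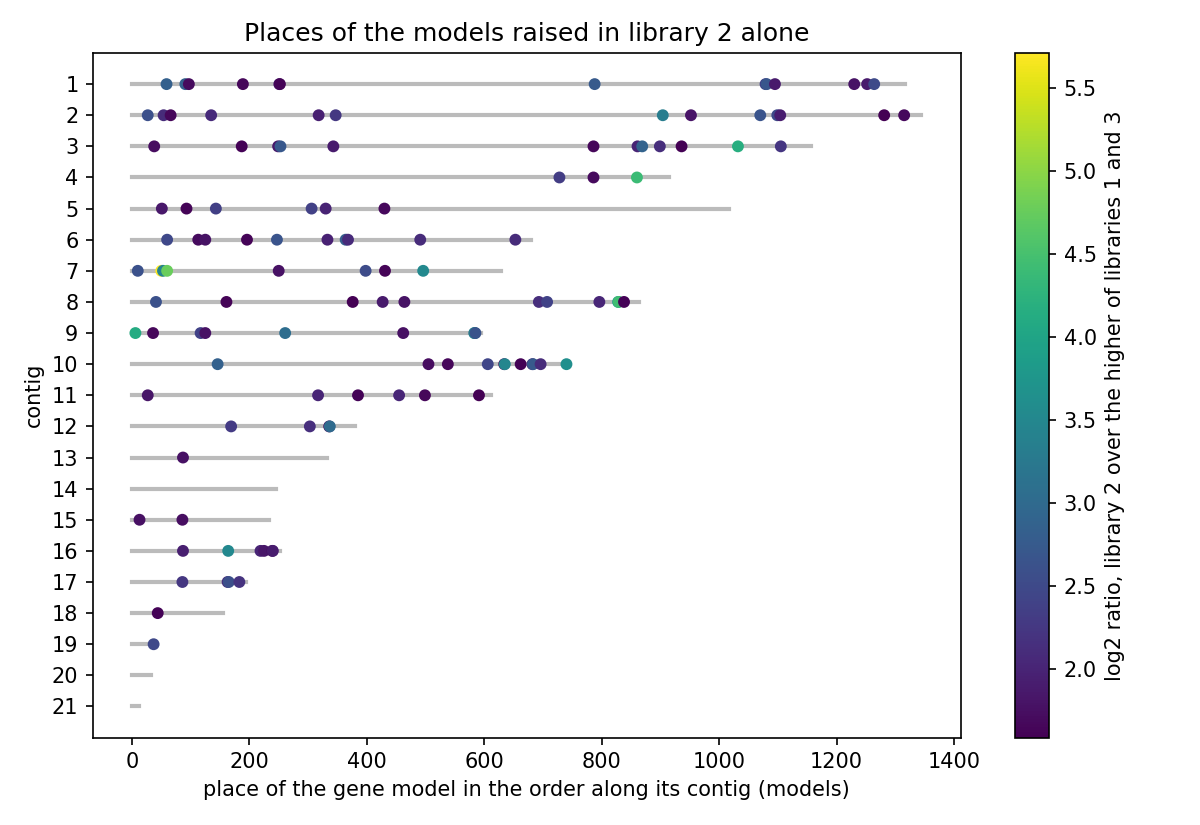
Place of each member in the order of gene models along its contig (x axis, in models) for the 21 contigs (y axis, grey lines to scale), coloured by the log2 ratio of library 2 to the higher of libraries 1 and 3. The brightest points are SRUG_06479 and SRUG_06489 near the start of contig 7, and contigs 14, 20 and 21 hold no member.

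The members were shorter than the models tested, with a median of 1021 against 1313 bases, or 0.774 in relative length. The lists for the other libraries were also short, with medians of 975 bases for the 13 models raised in library 1 alone, 929 bases for the 26 raised in library 3 alone and 976.5 bases for the 48 lowered in library 2, so a median below that of all models was not particular to library 2. The members were unevenly spread over the length classes. Of the models of 300 to under 400 bases, 13 of 290 (4.48%) were members, and of those of 400 to under 500 bases 14 of 325 (4.31%), against 0.938% of the models of 1000 to under 2000 bases (39 of 4157) and 1.43% of those of 3000 bases or more (11 of 770). Under 500 bases lay 24.0% of the members, against 8.24% of all models tested. This share was 15.4% of the models raised in library 1 alone (2 of 13), 23.1% of those raised in library 3 alone (6 of 26) and 16.7% of those lowered in library 2 (8 of 48), each above the share of all models.

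**Figure D5:**
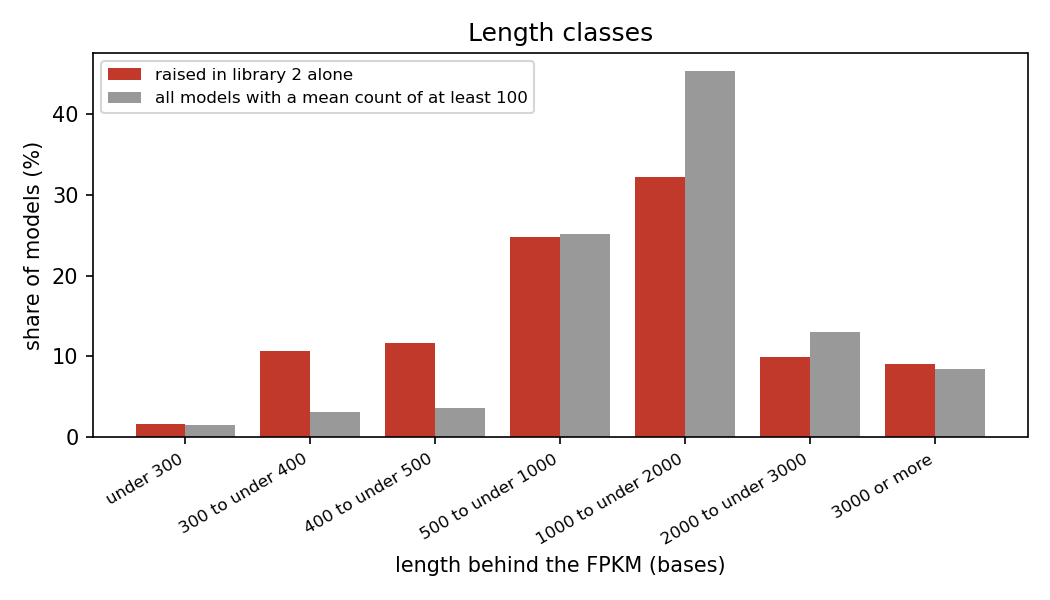
Share of models (%) in each length class for the members (red, left bars) and for all models with a mean count of at least 100 (grey, right bars). The members exceed all models in the classes from 300 to under 500 bases, with 10.7% and 11.6% against 3.16% and 3.54%, and fall below them from 1000 to under 2000 bases, with 32.2% against 45.3%.

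Some short members on different contigs had the same length. SRUG_07887 on contig 8 and SRUG_10208 and SRUG_10209 on contig 12 were each 320 bases long, and SRUG_04678 on contig 4 and SRUG_07886 on contig 8 were each 332 bases. Pairs of members on different contigs also shared lengths of 686, 778 and 1217 bases, and a pair on contig 17 shared 411 bases. How often models tested share a length in general was not counted, and whether these models share sequence was not examined. The 15 members under 400 bases had a median of 113 FPKM in library 2, against 23.3 FPKM for the longer members, and a median ratio of 6.31 against 4.02. A short model needs a higher FPKM to reach the minimum count, so these levels are not free of the rule. Members under 400 bases made up 46.3% of the FPKM of all members in library 2 and 25.2% of their counts.

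At the other end, SRUG_11480 (6046 bases) and SRUG_06827 (6035 bases) were the longest members. SRUG_11480 had 1.98 FPKM in library 2 against 0.197 and 0.451 in libraries 1 and 3, the lowest level of any member in library 2. SRUG_06827 had 5.85 FPKM in library 2 against 0.400 and 1.01, and SRUG_08662 (4263 bases) had 5.24 against 0.285 and 0.729. All 3 were higher in library 3 than in library 1, by more than 2 times. After SRUG_02387, the shortest members were SRUG_07896 (248 bases, with 41.6 FPKM in library 2 against 11.8 and 13.6) and then, at the same 320 bases, SRUG_07887, SRUG_10208 and SRUG_10209.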

How the data were processed

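RNA was extracted from mycelia grown on potato dextrose agar and sequenced as 3 libraries. The authors deposited gene counts, as whole numbers per gene model, and FPKM values, each in tables that agree in every cell. The submitters' processing notes list fastp, HISAT2 and StringTie without versions. Neither the strand setting nor how multiply matching reads were counted is stated by the sources at hand. Of the counts from 1 to 10, 67.7% were even, so a fragment was taken as 2 counts and a count of 0 as allowing 3 fragments, or 6 counts, a floor for counting error only.

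Columns of no sample numbered 0. All 3 libraries form 1 group, library 2 was singled out by its values, and no test was made. The members, lists and rule for named genes were chosen with earlier results of these data known. Named were SRUG_06479 and SRUG_06489, members named in the study's text, the 12 highest members by FPKM in library 2, the 12 with the largest ratio, 6 runs with a gap of at most 2 (the longest first, then in order of the first model, since all but 1 run had 2 members), 3 models on each side of the threshold, and the 3 longest and 3 shortest members (the last place among the shortest is a tie). Other models are named after their values were seen. Lengths were derived from count and FPKM, a step chosen after seeing the data. Runs and direct neighbours were taken from the model numbers, which skip some values. Distances to contig ends and the places in the figure use the rank of a model in the order along its contig. Scripts were tested on simulated data. Python 3.11.15, pandas 2.3.3, NumPy 2.4.6, matplotlib 3.10.9 and R 4.3.3 with edgeR 4.0.16 (TMM) and DESeq2 1.42.0 (size factors) were used. Alternatives were other folds, minimum counts, scalings and gaps, 1 FPKM added, drawn genes kept, and leaving out a library.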

Additional observations from a re-analysis of the deposited data

How the results depend on the processing

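The count of 121 members moved with the fold, the minimum count and the libraries compared. It was 353 with a fold of 2, 64 with a fold of 4 and 45 with a fold of 5, and it was 302 with no minimum count, 197 with a mean count of at least 10 and 52 with at least 500. It ranged from 146 to 310 when library 1 or 3 was left out, the highest without library 3; library 2 cannot be left out under the rule. It was 107 with TMM, 107 with DESeq2 size factors, 87 with 1 FPKM added and 122 with the drawn genes kept.

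The members next to a member, 15 in the report, numbered 61, 7 and 5 with folds of 2, 4 and 5, and 51, 32 and 4 with no minimum count, at least 10 and at least 500. Without library 1 or 3 they numbered 15 to 41, and gaps of 2 and 3 models gave 19 and 21. Counts for other folds, minimum counts and libraries belong to lists of the different sizes given above. The median relative length of 0.774 was 0.943, 0.592 and 0.557 with folds of 2, 4 and 5, was 0.770, 0.763 and 0.581 with those minimum counts, and ranged from 0.766 to 0.784 with 1 library left out. The median log2 ratio of library 1 to library 3 in the members, -0.22, was -0.0832 with TMM and -0.0816 with DESeq2 size factors. Such scaling changes every model of a library by the same factor, so the median of -0.14 over all models moves with that of the members. The cause of the other shifts was not tested. No paired analysis was possible because the libraries form a single group. With 1 library on the raised side, no ratio has a replicate error, and members near the minimum count rest on few counts in libraries 1 and 3.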

Other observations

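Of the 2506 models below the minimum count, 181 (7.22%) met the fold in library 2 alone, against 62 (2.47%) in library 1 and 76 (3.03%) in library 3. Of the 181, 86 had 0 counts in libraries 1 and 3, 113 exceeded 6 counts in library 2, and 60 had at least 50. The most counts were those of SRUG_04725 on contig 4, with 262 in library 2 against 6 and 4 in libraries 1 and 3. Its derived length of 332 bases, which the error bounds for members do not cover, was that of SRUG_04678 on the same contig and of SRUG_07886 on contig 8. SRUG_06462 and SRUG_09969 each had 237 counts in library 2, against 23 and 3 for SRUG_06462 and 26 and 10 for SRUG_09969 in libraries 1 and 3. SRUG_04142 (1765 bases) had 235 counts in library 2 against 20 and 28, and SRUG_10493 (1716 bases) had 224 against 40 and 27. These 5 were chosen after their values had been seen, as the models with the most counts in library 2.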
